A study of Mus musculus with 24 samples.

Results

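H/ACA box nucleolar RNAs are short non-coding RNAs named Snora in the mouse annotation. The deposited expression table held 38 rows with such a symbol (Snora followed by a digit). The 35 that reached 0 or more on its log2 scale in at least 4 of 24 libraries are described here, out of 13272 genes that passed the same filter and 15390 rows in all. The rule used no difference between groups. Snora28 and Snora52 passed with 5 libraries at 0 or more and Snora69 with 6, whereas Snora70 reached 0 in 3 libraries and Snora31 and Snora36b in 2 each, and these 3 RNAs are not analysed further.

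The libraries were made from MC38, a colon carcinoma line of the mouse. The groups were Ado KO cells (Ado gRNA 1 or Ado gRNA 2) and control cells (Control gRNA 1 or Control gRNA 2), sampled untreated, after 1 h of TNF, an inflammatory cytokine, or after 6 h of it. Ado encodes a thiol dioxygenase of cysteamine and of N-terminal cysteines in proteins. Each of the 6 groups held 4 libraries, 2 per guide, and libraries are written as guide-replicate (2-1 for guide 2, replicate 1). The labels do not say whether a guide population was a clone or a pool. They also do not say that replicates were grown apart, and the p-values then measure only library-to-library spread, which may be technical. Genotype and interaction comparisons rest on 2 guide populations per genotype, so their p-values may be too small where guides differ. No untreated library taken at 6 h was analysed here, so TNF and the time in culture cannot be told apart.

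An H/ACA RNA folds into a pair of hairpins joined by a hinge that holds box H (ANANNA) and followed by a tail with the triplet ACA close to the 3′ end. With the proteins dyskerin (Dkc1), Nop10, Nhp2 and Gar1 it forms a particle that converts chosen uridines of ribosomal or spliceosomal RNA to pseudouridine, the hairpins pairing with the sites on both sides of the target uridine. A few members, of which U17 (Snora73) is the best known, instead serve the cleavage of the ribosomal RNA precursor. Most vertebrate H/ACA RNAs are cut out of introns of a host gene, and their 3′ ends are briefly oligoadenylated and trimmed back, so the mature forms carry no long poly(A) tail.

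RNA was read with the QuantSeq 3′ mRNA kit, which primes with oligo(dT) and yields 1 tag near a 3′ end per molecule. Mature H/ACA RNAs lack a long poly(A) tail, so their tags may come from other forms, such as oligoadenylated or host transcripts. A change in tags is therefore not a measure of the mature RNA, and which forms were read was not tested. Values are the authors' normalised values, taken as log2 CPM. All libraries shared 1 lowest value (-3.349) and 1 highest (17.04), so a common distribution was inferred. The values are then not plain shares of the tags of a library. Shares of the summed CPM and the depth below were computed from them and are approximate. Levels of different genes are not compared. Depth was estimated from the spacing of low values at 4260000 to 6630000 tags per library, at which a value of 0 corresponds to about 3.8 to 6.1 tags while 617 to 1013 genes had the table's floor value. From 0 to 2 of the 35 H/ACA RNAs per library were at that floor. Of 9 epithelial markers 3 had a row in the table (Cdh1, Krt8 and Krt18), with a summed level of 0.294 to 3.37 CPM per library and Epcam not listed. Of 12 immune markers 7 had a row, and they summed to 4.09 to 34.03 CPM. Ado's own tag lies near its 3′ end and therefore does not check the editing. In bulk RNA, fewer cells with a transcript and less of it per cell cannot be told apart.

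The sequences of 6 of the members whose response to 6 h of TNF differed between the genotypes are shown first, because most of the results below turn on them. They are the GENCODE M21 transcripts (build GRCm38), 5′ to 3′. Capitals mark the ACA triplet where it lies within 4 bases of the 3′ end, and the box H motif ANANNA where exactly 1 copy lies between 30% and 70% of the length.
Snora30: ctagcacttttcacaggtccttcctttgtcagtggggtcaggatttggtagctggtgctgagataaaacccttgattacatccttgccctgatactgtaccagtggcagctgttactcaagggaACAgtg
Snora44: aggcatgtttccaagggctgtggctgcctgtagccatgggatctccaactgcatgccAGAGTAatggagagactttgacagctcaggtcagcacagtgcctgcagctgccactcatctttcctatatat
Snora47: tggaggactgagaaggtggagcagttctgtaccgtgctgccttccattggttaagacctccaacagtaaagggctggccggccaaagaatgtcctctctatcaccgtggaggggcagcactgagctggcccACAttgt
Snora20: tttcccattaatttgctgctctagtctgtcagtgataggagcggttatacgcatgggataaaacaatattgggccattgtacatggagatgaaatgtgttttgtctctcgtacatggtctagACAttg
Snora3: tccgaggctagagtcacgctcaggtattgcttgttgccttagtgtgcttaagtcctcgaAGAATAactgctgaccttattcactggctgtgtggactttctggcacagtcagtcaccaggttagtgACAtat
Snora68: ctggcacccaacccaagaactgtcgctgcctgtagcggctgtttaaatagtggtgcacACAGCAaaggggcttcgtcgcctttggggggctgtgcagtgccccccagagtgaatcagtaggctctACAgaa
Snora30 lies at chr7:127527874-127528003 on the plus strand within Srcap and the overlapping gene Gm42715, Snora44 at chr4:132309941-132310069 (plus) in the non-coding gene Snhg12, and Snora47 at chr13:95330600-95330737 (plus) in an intron of Zbed3. Snora20 lies at chr17:12922790-12922917 (plus) in Tcp1, which encodes a chaperonin subunit. Snora3 lies at chr7:109520120-109520251 (plus) in the ribosomal protein gene Rpl27a. The annotated transcript of Snora44 has no ACA within 4 bases of its end. Snora3, Snora44 and Snora68 overlap an annotated exon of another transcript, so their tags cannot be separated from those of that transcript. Snora20, Snora47 and Snora62 had no near-identical copy elsewhere in the annotation (85% identity over at least 50 bases), whereas Snora30 had 1, Snora3 and Snora68 had 2 each and Snora44 had 5.

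The 35 transcripts were 121 to 205 bases long with a median of 133, and their GC content was 33.3% to 64.1%. An ACA triplet lay within 4 bases of the end in 33 of the 35 (94.3%), in 95.2% of all 42 annotated Snora transcripts and in 5.1% of 98 transcripts of the Snord class, the C/D box RNAs that guide 2′-O-methylation. In 27 members exactly 3 bases followed the triplet. A central ANANNA was found in 33 members (94.3%), in 95.2% of all Snora and in 58.2% of Snord transcripts, so this motif alone separates the classes less than the ACA does. Only the sense strand was searched, since the RNA is the product. The longest run of A within a member was 2 to 5 bases.

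Annotated hosts on the same strand existed for 32 members, in 29 host genes, of which 10 members sat in ribosomal protein genes. The 35 members were spread over 19 chromosomes. Transcripts of another gene shared exonic sequence with 21 of them, and 10 had both a single annotated gene and no near-identical copy. Snora16a and Snora43 are symbols with more than 1 annotated gene, and Snora17 had 95 near-identical copies, so the levels of these RNAs may combine several loci.

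The summed level of the 35 RNAs was a small share of the summed CPM of each library and was highest at 6 h of TNF. In untreated cells it was 0.0499% ± 0.0113 of the summed CPM in Ado KO libraries and 0.0414% ± 0.0016 in control libraries (SD, n = 4 each). At 1 h the share was 0.0656% ± 0.0072 in Ado KO and 0.0505% ± 0.0063 in control libraries. At 6 h it was 0.0828% ± 0.0073 in Ado KO and 0.138% ± 0.0190 in control libraries. The 6 h ranges of the genotypes did not overlap, with 0.0741% to 0.0918% in Ado KO and 0.117% to 0.163% in control libraries. In untreated Ado KO cells the guides stood apart, since guide 2 gave 0.0619% and 0.0571% and guide 1 gave 0.0415% and 0.0390%. The guide 1 values lay within, or just below, the control range of 0.0392% to 0.0430%.

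**Figure D1:**
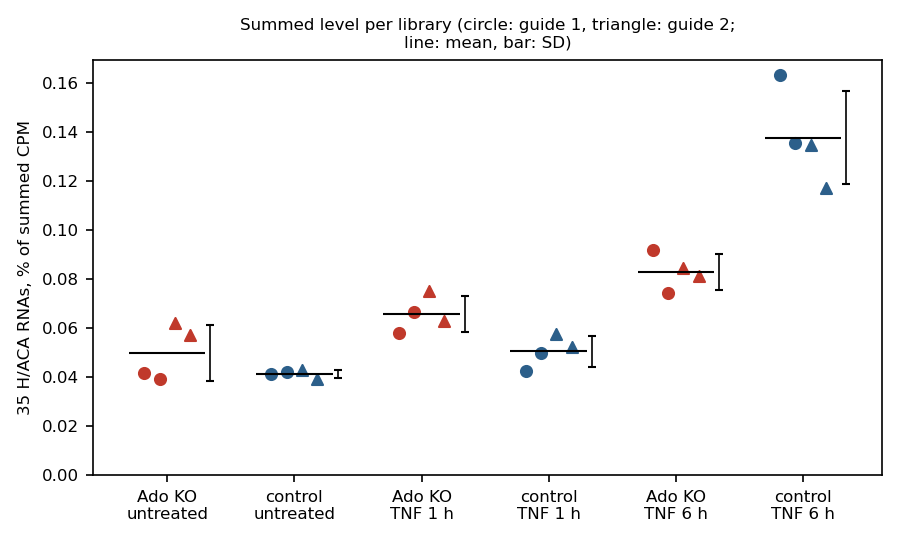
Summed level of the 35 H/ACA RNAs as a percentage of the summed CPM (vertical axis) in each of 24 libraries, by genotype and treatment (horizontal axis); circles are guide 1, triangles guide 2, lines are means and bars SD of 4 libraries. The control libraries at 6 h lie at 0.117% to 0.163%, above all 20 other libraries, and the untreated Ado KO libraries split by guide.

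After 6 h of TNF, most H/ACA RNAs had higher tag levels than in untreated cells of both genotypes. The median difference was smaller in Ado KO cells. In Ado KO cells 19 of 35 rose and none fell (limma, p adjusted by Benjamini-Hochberg across the 13272 genes, threshold 0.05). Of all genes 4.42% were called higher and 2.02% lower in that comparison. In control cells 30 of 35 rose and none fell, against 7.74% of all genes called higher and 10.3% lower. At an unadjusted p under 0.05 the counts were 23 higher and 0 lower in Ado KO and 31 higher and 0 lower in control cells. The median change was 0.88 in Ado KO and 1.68 in control cells on the log2 scale, beside medians over all genes of -0.05 and -0.09. The 4 libraries at 6 h all lay above the 4 untreated ones for 19 members in Ado KO cells and for 31 in control cells, where 6.69% and 8.64% of all genes did so. The same 19 members were called in both genotypes, 11 were called in control cells alone and 5 in neither. These counts do not test whether the genotypes differed at those 11. The count in Ado KO cells was 6 without guide 1 and 15 without guide 2, and that in control cells was 20 without guide 1 and 26 without guide 2. In that order these fits called 2.78%, 3.17%, 5.61% and 13% of all genes in either direction.

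Members that passed the filter only through their high level at 6 h could inflate such counts. At 0 or more in at least 4 untreated libraries were 31 members. Of these, 19 rose in Ado KO and 28 in control cells, with medians of 0.92 and 1.68. The other 4 members gave 0 calls in Ado KO and 2 in control cells, Snora16a and Snora69. Snora16a was at 0 or more in 0 untreated libraries and in 7 at 6 h, and Snora69 in 2 untreated libraries and in 4 at 6 h. Both therefore passed through their level at 6 h. Restricted to the 10 members with 1 annotated gene and no near-identical copy, 6 rose in Ado KO and 8 in control cells, with medians of 1.35 and 2.39. Among the 14 members without overlap with an exon of another gene, 6 rose in Ado KO and 13 in control cells. Beside all these counts, 4.42% of all genes were called higher in Ado KO and 7.74% in control cells.

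**Figure D2:**
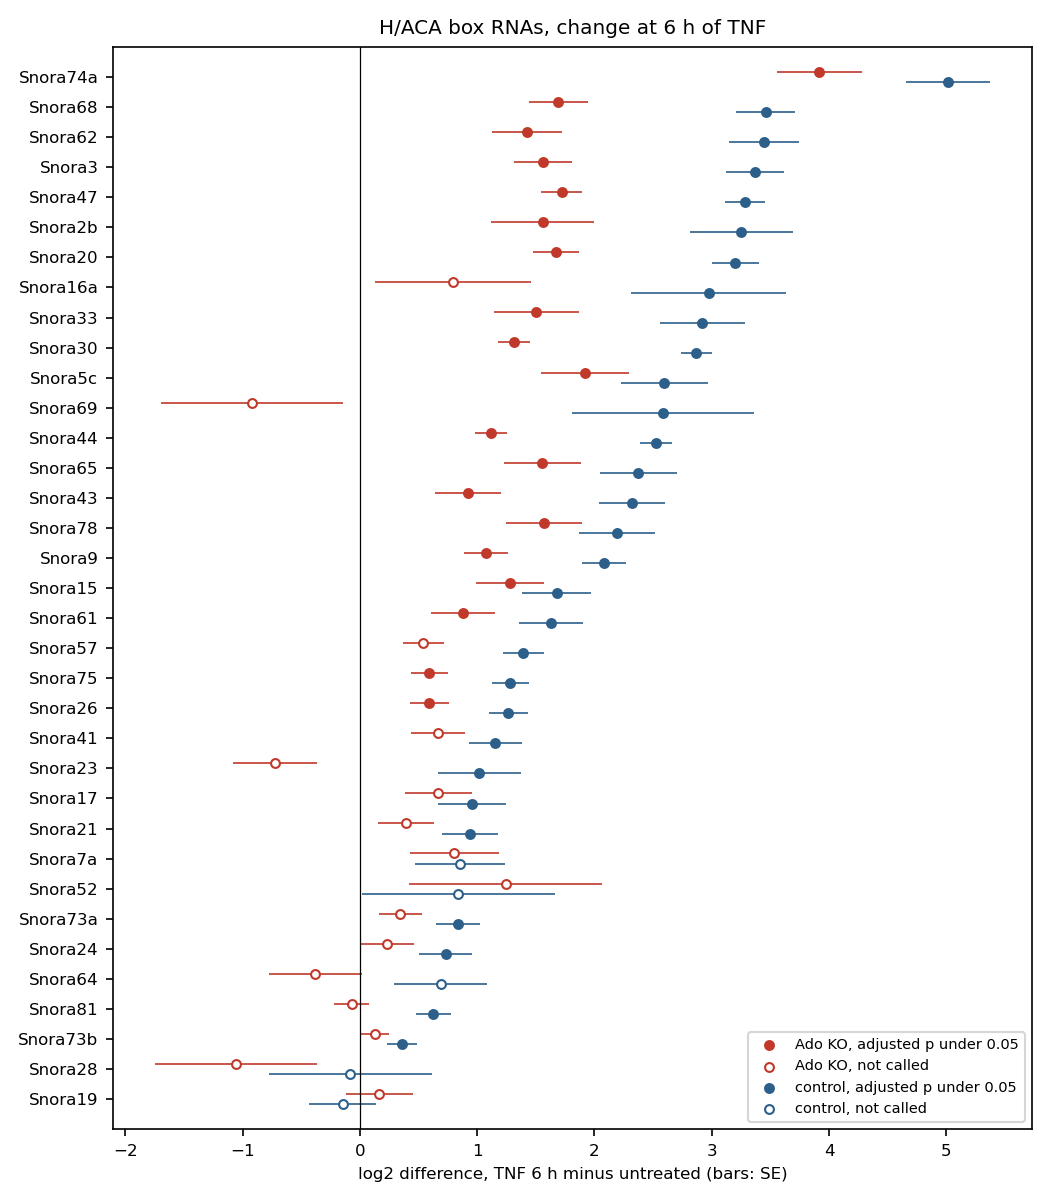
Log2 difference between TNF 6 h and untreated cells (horizontal axis) for each of the 35 H/ACA RNAs (rows, ordered by the control value), in Ado KO cells (red, upper point of a row) and control cells (blue, lower point); bars are SE and filled points have an adjusted p under 0.05. The control point lies to the right in 33 of 35 rows, from 5.01 for Snora74a to -0.15 for Snora19.

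Snora74a, the mouse counterpart of human U19, had the largest change of the members in both genotypes. It overlaps a retained intron of another gene model and has no near-identical copy. Its level was 4.83, 4.32, 4.62 and 4.57 log2 CPM in the Ado KO libraries at 6 h, against 1.31, 1.18, 0.60 and -0.42 in untreated Ado KO libraries. In control libraries it was 6.31, 5.80, 5.56 and 5.43 at 6 h, against -0.33, 0.66, 2.07 and 0.66 untreated. The 6 h libraries lay far above the untreated ones in both genotypes, which corresponds to differences of 3.92 ± 0.36 in Ado KO (SE; limma adjusted p = 9.84e-10) and 5.01 ± 0.36 in control cells (adjusted p = 1.72e-12). The difference between these changes did not pass the test (-1.10 ± 0.51, adjusted p = 0.71).

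The RNAs next in size of change in control cells were Snora68, Snora62 (known as E2), Snora3 and Snora47, which stood at 3.46, 3.45, 3.37 and 3.29. Their changes in Ado KO cells were 1.69, 1.43, 1.56 and 1.72, each of them called. Their untreated group means were 0.55 log2 CPM or more, above the floor of the table at -3.35. The lowest, 0.55, was that of Snora62 in control cells. A value of 0 corresponds to about 3.8 to 6.1 tags, so the change of Snora62 starts from few tags.

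At the other end were the smallest changes that passed the test in control cells. Snora73b and Snora73a belong to U17, the RNA needed for early cleavages of the 18S rRNA precursor, and lie side by side on the minus strand of chromosome 4 within Rcc1, a gene of nucleocytoplasmic transport, and the overlapping non-coding Snhg3 (chr4:132352322-132352526 and chr4:132352775-132352979). Their sequences are shown to let a reader judge how well tags tell them apart.
Snora73a: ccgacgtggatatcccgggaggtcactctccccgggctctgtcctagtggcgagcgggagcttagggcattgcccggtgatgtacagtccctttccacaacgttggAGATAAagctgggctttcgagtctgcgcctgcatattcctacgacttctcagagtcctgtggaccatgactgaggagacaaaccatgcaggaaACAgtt
Snora73b: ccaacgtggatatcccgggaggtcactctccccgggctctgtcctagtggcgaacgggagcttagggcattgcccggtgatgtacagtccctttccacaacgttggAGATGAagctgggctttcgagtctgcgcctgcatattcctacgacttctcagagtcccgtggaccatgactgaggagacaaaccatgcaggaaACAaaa
Capitals mark the ACA triplet and the central box H as above. The copies are 205 bases each and differ at 7 positions, so their tags may be shared, and exons of Gm17300 lie on the opposite strand. Snora73a also overlaps an annotated exon of Snhg3. Snora73b was at 5.97, 5.66, 5.73 and 5.81 log2 CPM in Ado KO libraries at 6 h, against 5.49, 5.38, 5.98 and 5.81 in untreated Ado KO libraries. Control libraries had 5.97, 5.59, 5.74 and 5.74 at 6 h, against 5.38, 5.20, 5.48 and 5.54 untreated. The groups overlapped in Ado KO cells (0.13 ± 0.13 SE, adjusted p = 0.679) and were just separate in control cells (0.36 ± 0.13, adjusted p = 0.046). That control call was lost in 11 of 18 alternative settings, among them 6 of the 8 that left out 1 library. Snora73a had a difference of 0.35 ± 0.19 in Ado KO cells (adjusted p = 0.346) and rose by 0.84 ± 0.19 in control cells (adjusted p = 0.00182), a call that was lost without Control guide 1 (0.68, adjusted p = 0.124).

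Snora81 (HBI-61) lies in the translation factor gene Eif4a2, where it overlaps a retained intron. It had 7.25, 6.77, 7.29 and 7.03 log2 CPM in Ado KO libraries at 6 h, against 7.04, 6.64, 7.59 and 7.34 in untreated Ado KO libraries. In control libraries it had 8.32, 8.03, 7.71 and 7.56 at 6 h, against 7.47, 7.52, 7.16 and 6.97 untreated. Untreated and 6 h levels overlapped in Ado KO cells (-0.07 ± 0.15 SE, adjusted p = 0.87) and were separate in control cells (0.62 ± 0.15, adjusted p = 0.00329). In Ado KO cells the value was 0.17 in Ado guide 1 and -0.30 in Ado guide 2, and neither passed (adjusted p = 0.662 and 0.328). The call in control cells was lost without Control guide 1 (0.57, adjusted p = 0.068). Snora24 and Snora21 also rose in control cells, by 0.73 and 0.94, with values of 0.23 and 0.39 in Ado KO cells that did not pass. The call of Snora24 was lost in 6 of 18 alternative settings, namely without either control guide (adjusted p = 0.135 and 0.202) and without each of 4 single control libraries, 1-1 and 2-1 at 6 h and 1-1 and 2-2 untreated (adjusted p from 0.0526 to 0.0821). That of Snora21 was lost without either control guide (adjusted p = 0.0923 without Control guide 1 and 0.0613 without Control guide 2).

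The members that passed in neither genotype were Snora19, Snora64, Snora7a, Snora28 and Snora52. Snora19, from an intron of Eif3a, had 1.51, 1.95, 1.91 and 1.48 log2 CPM in Ado KO libraries at 6 h, against 1.31, 1.51, 2.05 and 1.31 untreated. Its control libraries had 0.64, 1.30, 1.74 and 1.19 at 6 h, against 0.92, 1.31, 1.31 and 1.93 untreated. All 4 groups overlapped, and the differences were 0.17 ± 0.28 in Ado KO and -0.15 ± 0.28 in control cells (SE; adjusted p = 0.836 and 0.766). Snora28 and Snora52, at 0 or more in 5 of 24 libraries each, had SEs of 0.69 and 0.82, and no change in them was detectable at this depth.

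The test of whether the 6 h change differed between genotypes called 7 H/ACA RNAs, all with the smaller change in Ado KO cells. They were Snora30, Snora44, Snora47, Snora20, Snora3, Snora68 and Snora62, out of 46 such genes among 13272 (0.347%), none of which was higher. At an unadjusted p under 0.05 the count was 0 higher and 19 lower. The median of the interaction was -0.85 over the 35 members and 0.03 over all genes, and 33 of 35 members had the smaller change in Ado KO cells. Tags of Snora3, Snora44 and Snora68 may come from an overlapping exon.

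Snora30 stood at 7.16, 6.92, 7.11 and 6.92 log2 CPM in Ado KO libraries at 6 h, against 5.59, 5.57, 5.76 and 5.94 untreated. Control libraries stood at 8.37, 8.11, 8.13 and 7.86 at 6 h, against 5.10, 5.24, 5.39 and 5.26 untreated. Both genotypes responded without overlap, by 1.31 ± 0.13 in Ado KO and 2.87 ± 0.13 in control cells, and the difference of these changes was -1.55 ± 0.19 (SE; limma adjusted p = 2.26e-05).

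Snora44 had 5.77, 5.64, 5.53 and 5.25 log2 CPM in Ado KO libraries at 6 h, against 4.09, 4.25, 4.69 and 4.67 untreated. In control libraries the values were 6.37, 6.15, 6.47 and 6.13 at 6 h, against 3.65, 3.94, 3.87 and 3.54 untreated. The control cells thus started lower and ended higher, and the changes of 1.12 and 2.53 differed by -1.41 ± 0.19 (adjusted p = 0.000138). Its host Snhg12 was called in the same direction, at -1.09 ± 0.15 (adjusted p = 0.000138).

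For Snora47 the Ado KO libraries gave 5.52, 5.68, 5.28 and 5.45 log2 CPM at 6 h, against 3.39, 3.39, 4.10 and 4.17 untreated. Its control libraries gave 6.74, 6.50, 6.33 and 6.12 at 6 h, against 3.08, 3.04, 3.15 and 3.27 untreated. The 2 higher untreated Ado KO values both belong to guide 2, and the interaction was -1.57 ± 0.24 (adjusted p = 0.000623).

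Snora20 was at 4.54, 3.78, 4.26 and 4.43 log2 CPM in Ado KO libraries at 6 h, against 2.05, 2.46, 2.87 and 2.94 untreated. It was at 5.44, 5.22, 5.33 and 5.10 in control libraries at 6 h, against 2.39, 1.97, 2.26 and 1.68 untreated. The 6 h ranges of the genotypes were separate and the untreated ones overlapped, with an interaction of -1.53 ± 0.28 (adjusted p = 0.00414).

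Snora3 had 5.31, 5.21, 4.92 and 5.45 log2 CPM in Ado KO libraries at 6 h, against 3.39, 3.50, 3.82 and 3.93 untreated. Its control libraries had 6.34, 6.27, 6.27 and 6.05 at 6 h, against 2.44, 2.12, 3.51 and 3.36 untreated. The untreated control libraries of guide 1 lay well below those of guide 2, while the 6 h libraries of both guides were close. The interaction was -1.81 ± 0.35 (adjusted p = 0.00616).

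Snora68 read 5.34, 4.91, 4.97 and 4.91 log2 CPM in Ado KO libraries at 6 h, against 2.74, 3.11, 3.66 and 3.86 untreated. Control libraries read 6.12, 5.75, 5.62 and 5.59 at 6 h, against 1.31, 2.36, 2.80 and 2.77 untreated. One untreated control library, 1-1, was far below the other 3, and the interaction was -1.77 ± 0.36 (adjusted p = 0.0121).

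Snora62 had 2.80, 2.02, 3.01 and 3.26 log2 CPM in Ado KO libraries at 6 h, against 1.01, 1.30, 1.54 and 1.51 untreated. The control libraries had 4.08, 4.06, 3.58 and 4.27 at 6 h, against 0.02, 0.24, 0.96 and 0.98 untreated. Neither pair overlapped, and the interaction was -2.02 ± 0.42 (adjusted p = 0.016). That call was also lost without any 1 of 5 single libraries (adjusted p from 0.0503 to 0.0721), and the call of Snora68 without 1 of 2 (adjusted p = 0.0506 and 0.057).

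**Figure D3:**
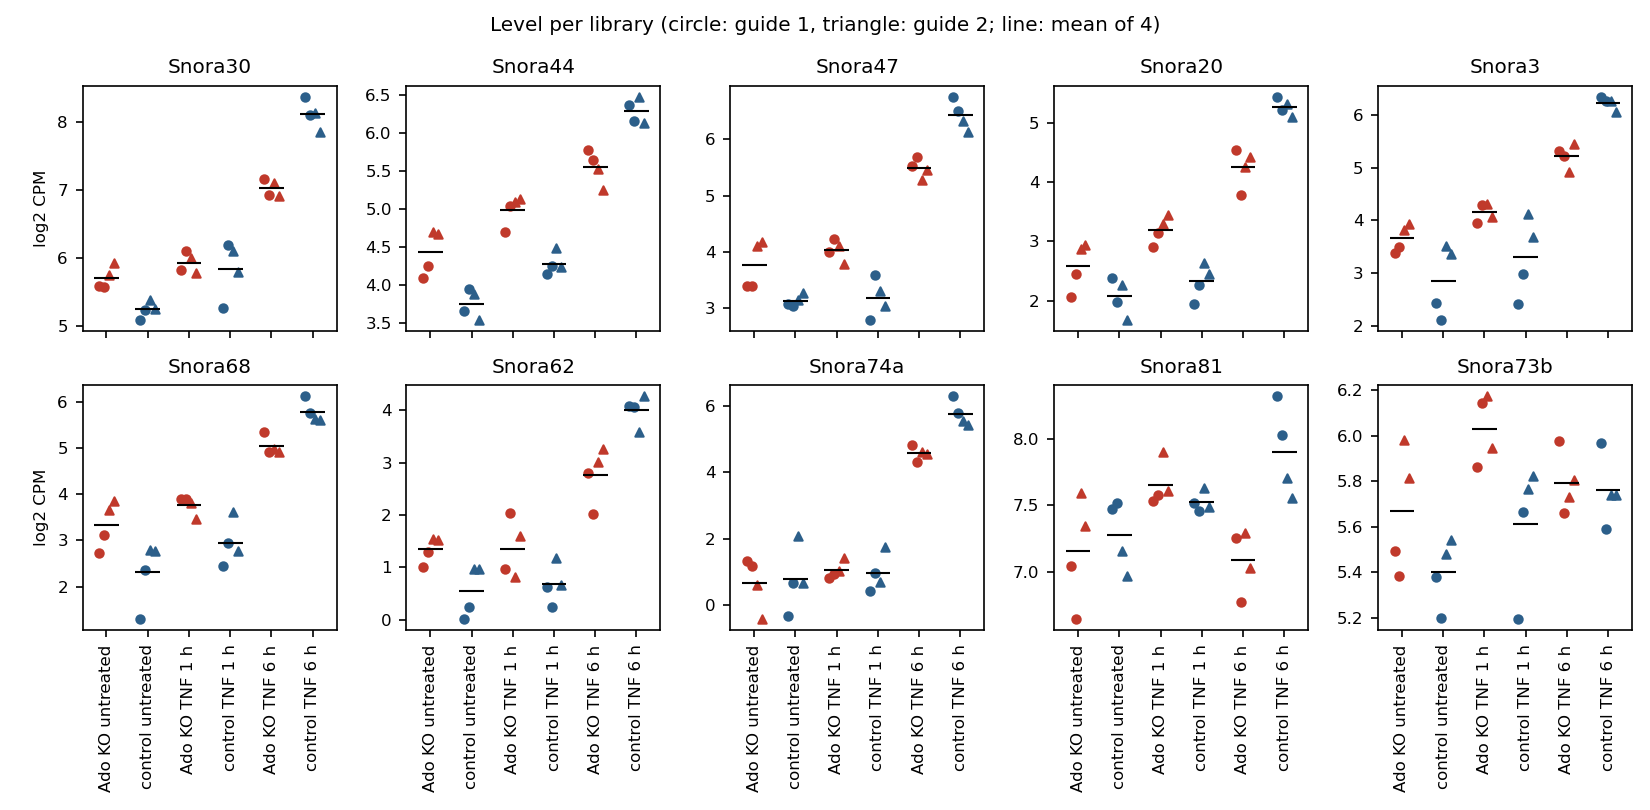
Level per library (log2 CPM, vertical axes with a scale of their own in each panel) of the 7 H/ACA RNAs with a called interaction and of Snora74a, Snora81 and Snora73b, in the 6 groups (horizontal axes); circles are guide 1, triangles guide 2, lines the mean of 4 libraries. In the 7 called RNAs the Ado KO libraries at 6 h lie below the control libraries at 6 h and above the untreated ones.

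The calls varied with the guide population left out. Without Ado guide 2, 0 of 35 members and 1 of 13272 genes were called by limma (0.00753%), with 0 higher and 12 lower members at an unadjusted p under 0.05 and a median of -0.55. Without Control guide 1 there were 2 calls, Snora30 and Snora44, and 0.0829% of all genes. Without Control guide 2 there were 9 and without Ado guide 1 there were 7, at 0.565% and 0.339% of all genes. Each such fit had 2 libraries per group in 1 genotype. Without Ado guide 2 the interaction of Snora30 was -1.41 (adjusted p = 0.0569), that of Snora44 -0.99 (adjusted p = 0.145) and that of Snora47 -1.07 (adjusted p = 0.276). All 7 remained negative in each of these fits. The fits share libraries with the test that chose the 7, so the shared sign is no separate support.

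By guide population, the median change of the 35 members at 6 h was 1.25 in Ado guide 1, 0.46 in Ado guide 2, 1.90 in Control guide 1 and 1.63 in Control guide 2. In that order 16, 9, 28 and 21 members rose and none fell, against 2.95%, 2.65%, 6.94% and 3.68% of all genes called higher. Both Ado populations were below both control populations, for the median and for each of the 7 RNAs named above. The 7 were chosen by the interaction test on these same libraries, so their order by guide is no separate support. For Snora30 the changes were 1.46 and 1.17 in Ado guides 1 and 2, against 3.07 and 2.67 in Control guides 1 and 2. For Snora44 they were 1.53 and 0.71 in the Ado guides, against 2.46 and 2.59 in the control guides.

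The guides of 1 genotype also differed from each other. In untreated Ado KO cells guide 2 was higher than guide 1 in 32 of 35 members, with a median difference of 0.59 (15 members higher and 1 lower at an unadjusted p under 0.05). The adjusted test called Snora9 alone, hosted by Snhg15, where 0.098% of all genes were called higher. It had 5.57 and 5.43 log2 CPM in guide 2 libraries, against 4.56 and 4.53 in guide 1 libraries, a difference of 0.95 ± 0.16 (SE; limma adjusted p = 0.0113). In untreated control cells Snora3 was called, 1.16 ± 0.21 higher in guide 2 (adjusted p = 0.00516; 0.452% of all genes higher). At 1 h in control cells guide 2 was higher in Snora3, Snora5c, Snora75 and Snora9, by 1.20, 1.73, 0.70 and 0.78, where 0.761% of all genes were called higher. At 6 h limma called 0 members between guides in either genotype (0.00753% of all genes higher in Ado KO and 0.437% in control cells), with 0 higher and 0 lower in Ado KO and 0 higher and 1 lower in control cells at an unadjusted p under 0.05.

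Set against control cells at the same time, the median difference of the H/ACA RNAs in Ado KO cells was positive untreated and at 1 h and negative at 6 h. Untreated, 1 member was called higher and none lower (0.0678% of all genes higher and 0.181% lower), with 28 of 35 differences positive, a median of 0.37 and 16 higher at an unadjusted p under 0.05. All 4 Ado KO libraries exceeded the control ones in 6 members and in 2.83% of all genes. The called member was Snora44, with 4.09, 4.25, 4.69 and 4.67 log2 CPM in Ado KO libraries, against 3.65, 3.94, 3.87 and 3.54 in control libraries. Its ranges did not overlap, and the difference was 0.67 ± 0.14 (SE; adjusted p = 0.0306). Its host Snhg12 was called as well, at 0.49 ± 0.11 (adjusted p = 0.0464). Without Ado guide 2 the difference in Snora44 was 0.41 (adjusted p = 0.489) and the median over the members 0.12, and 0 members were called. The count was also 0 without Control guide 1, the control library 1-1 or 2-2, or the Ado KO library 2-1 or 2-2. It was 2 without Control guide 2 or the Ado KO library 1-1, and 5 without Ado guide 1. Of all genes, 0.0226% were called in either direction without Ado guide 2 and 0.256% without Ado guide 1. The shares were 0.294% without Control guide 1 and 0.625% without Control guide 2. Snora44 was not among the 2 called without Control guide 2 (0.63, adjusted p = 0.126).

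At 1 h the Ado KO cells had 4 members called higher and none lower (0.527% of all genes higher and 0.535% lower). Snora75 (U23), which overlaps a retained intron of the nucleolin gene Ncl, had 5.19, 5.37, 5.66 and 5.50 log2 CPM in Ado KO libraries, against 4.47, 4.05, 5.13 and 4.79 in control libraries. These ranges did not overlap, and the difference was 0.82 ± 0.17 (SE; adjusted p = 0.0113). Snora47, Snora20 and Snora44 were higher by 0.85, 0.87 and 0.71. The median over the 35 was 0.58, and 14 members were higher and 0 lower at an unadjusted p under 0.05. The groups did not overlap in 9 members, all higher, and in 4.69% of all genes in that direction. The call count was 1 without Ado guide 2 and 3 without Ado guide 1 (0.535% and 0.173% of all genes in either direction). It was 1 without Control guide 1 and 10 without Control guide 2 (0.505% and 4.66% of all genes). It was 0 without the Ado KO library 2-1 and 8 without the control library 2-1.

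At 6 h the sign was the opposite, with 7 members called lower in Ado KO cells and none higher (0.595% of all genes lower and 0.422% higher). They were Snora30 (-1.09 ± 0.14 SE, adjusted p = 3.8e-05), Snora81 (-0.82 ± 0.16, adjusted p = 0.00393), Snora47 (-0.94 ± 0.18, adjusted p = 0.00465), Snora44 (-0.73 ± 0.14, adjusted p = 0.0059), Snora20 (-1.02 ± 0.21, adjusted p = 0.00875), Snora62 (-1.23 ± 0.31, adjusted p = 0.0478) and Snora3 (-1.01 ± 0.26, adjusted p = 0.0483). The median over the 35 was -0.64, with 0 higher and 15 lower at an unadjusted p under 0.05. As for groups without overlap, the Ado KO libraries all lay below the control libraries in 15 members, and in 3.94% of all genes. The count of calls was 2 without Ado guide 2 and 2 without Control guide 1 (0.226% and 0.542% of all genes in either direction). It was 4 without Ado guide 1 and 6 without Control guide 2 (0.271% and 1.52% of all genes). It was 4 without the Ado KO library 1-2, against 5 or 6 without any other library. Snora30 was called in each of these fits.

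The first hour of TNF called few members. In Ado KO cells limma called 0 of 35 (0.241% of all genes higher and 0.0151% lower), with 11 higher and 0 lower at an unadjusted p under 0.05 and a median of 0.38. The count was 2 without the untreated Ado KO library 2-1 and 1 without the 1 h library 1-1. In control cells it called Snora30 alone (0.332% of all genes higher and 0.0603% lower), with 5 higher and 0 lower unadjusted and a median of 0.22. Snora30 had 5.27, 6.19, 6.11 and 5.79 log2 CPM in control libraries at 1 h, against 5.10, 5.24, 5.39 and 5.26 untreated. The groups overlapped, and the difference of 0.59 ± 0.13 (SE; adjusted p = 0.0349) was lost in 8 of 18 alternative settings, among them both fits without a control guide (adjusted p = 0.0586 and 0.108) and those without the untreated library 1-1, 1-2 or 2-2 or the 1 h library 1-2 or 2-1. The interaction at 1 h was called for 0 members and 0 of all genes (1 higher and 0 lower member unadjusted).

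Between 1 h and 6 h of TNF, 8 members rose and 1 fell in Ado KO cells (4.05% and 3.72% of all genes), and 24 rose and none fell in control cells (4.82% of all genes higher and 2.86% lower). These comparisons share their 6 h libraries with those above. In Ado KO cells the risers were Snora74a, Snora47, Snora62, Snora68, Snora30, Snora3, Snora20 and Snora44, from 3.54 down to 0.56. Snora81 was the member that fell, by 0.57 on the log2 scale (SE 0.15, adjusted p = 0.0131), with 7.25, 6.77, 7.29 and 7.03 log2 CPM at 6 h, against 7.53, 7.58, 7.90 and 7.61 at 1 h. These ranges did not overlap. The fall was lost in 5 of 18 alternative settings, among them those without Ado guide 1, Ado guide 2, the 1 h library 2-1 or the 6 h library 1-2 (adjusted p from 0.0677 to 0.127). The count of risers was 6 without Ado guide 1 and 5 without Ado guide 2 (2% and 3.35% of all genes called in either direction). Medians of the 35 were 0.43 in Ado KO and 1.44 in control cells.

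The host gene had a row of its own above the filter for 31 members, in 28 genes. The median host change at 6 h was 0.01 in both genotypes, whereas the 31 members had medians of 1.07 in Ado KO and 2.08 in control cells. In Ado KO cells 5 hosts rose and none fell, against 4.42% of all genes called higher and 2.02% lower. In control cells 7 rose and 7 fell, against 7.74% of all genes called higher and 10.3% lower. Across the 31 pairs Pearson's r was 0.342 and Spearman's rho -0.182 in Ado KO cells, and r was 0.153 and rho -0.235 in control cells. Pairs share libraries and some share a host, so these values are descriptions.

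The hosts fell into classes, for which the share of all genes called higher at 6 h was again 4.42% in Ado KO and 7.74% in control cells. Ribosomal protein genes, whose products are made at high levels, hosted 10 members with medians of 1.34 in Ado KO and 2.48 in control cells. Of these 10, 5 were called higher in Ado KO and 7 in control cells. The members' changes ran from -0.92 to 1.69 in Ado KO and from 0.69 to 3.46 in control cells. Rpl27a was at -0.13 in Ado KO, which did not pass, and fell by 0.26 in control cells, while its Snora3 rose by 1.56 and 3.37. Rpsa was at -0.14 in Ado KO, which did not pass, and fell by 0.19 in control cells, beside rises of 1.43 and 3.45 of Snora62. Rpl32 fell by 0.34 in control cells, where its Snora7a, at 0.85, did not pass. Zbed3, a zinc finger gene, was at -0.11 in Ado KO, which did not pass, and fell by 0.56 in control cells, beside rises of 1.72 and 3.29 of Snora47. Snora47 is 1 of 15 members with another host gene, whose medians were 0.67 in Ado KO and 1.28 in control cells, with 8 and 13 called higher. Some hosts of that class rose in control cells. Eif4a2 was at 0.11 in Ado KO, which did not pass, and rose by 0.85 in control cells, where its Snora81 rose by 0.62. Ncl was at 0.11 in Ado KO, which did not pass, and rose by 0.50 in control cells, beside rises of 0.59 and 1.28 of Snora75. Eif5 rose by 0.43 in control cells, where its Snora28, at -0.08, did not pass. In Ado KO cells Rcc1 rose by 0.24, while Snora73a and Snora73b, at 0.35 and 0.13, did not pass. The 7 members in Snhg genes, non-coding hosts, or in the non-coding Dancr had medians of 0.88 in Ado KO and 2.08 in control cells. Of these, 5 were called higher in Ado KO and 7 in control cells. With Snora73a and Snora73b, which lie in both Rcc1 and Snhg3 and were counted with Rcc1, the 9 had medians of 0.79 and 1.63. There the host often rose too, as Snhg12 did by 0.92 in Ado KO and 2.01 in control cells, Snhg15 by 0.88 and 1.61 and Dancr by 0.65 and 1.38. Snhg9, host of Snora78, was at 0.14 and 0.04, which did not pass, while Snora78 rose by 1.57 and 2.19. Snhg12 hosts 3 of the members (Snora16a, Snora44 and Snora61), and all 3 overlap an Snhg12 exon. Snora24, Snora26 and Snora9 overlap exons of Snhg8, Dancr and Snhg15.

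**Figure D4:**
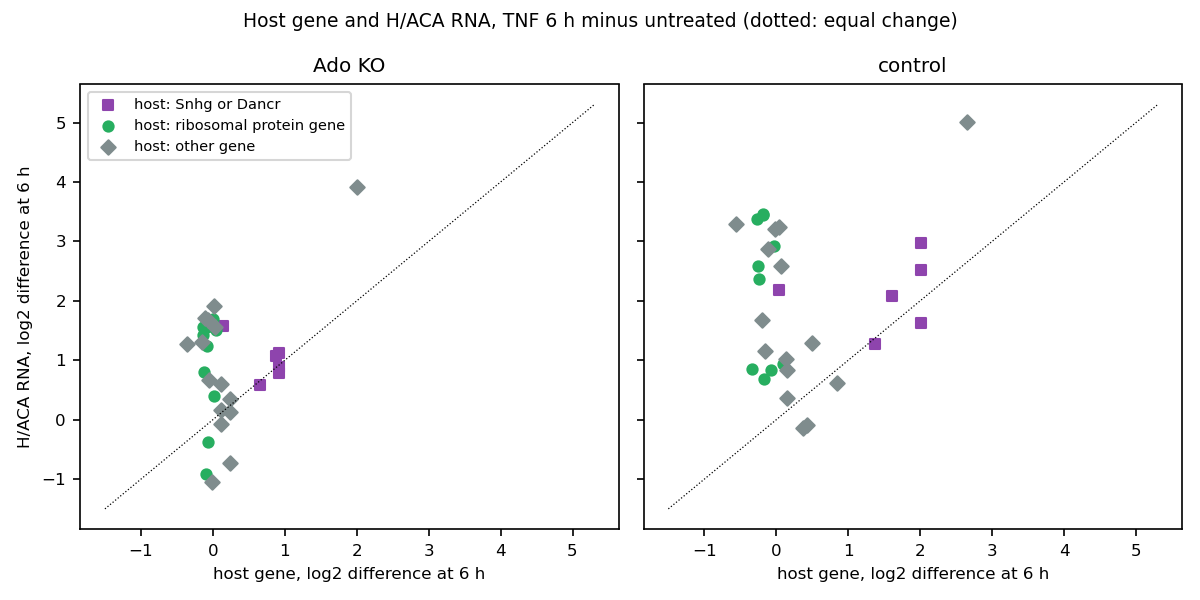
Log2 difference at 6 h of TNF of a host gene (horizontal axis) and of the H/ACA RNA within it (vertical axis), for 31 pairs in Ado KO cells (left) and control cells (right); the dotted line marks equal change and symbols give the class of host. Most hosts sit near 0, and the RNA's difference was above its host's in 22 of 31 pairs in Ado KO and in 26 in control cells. The highest RNA, Snora74a at 3.92 in Ado KO and 5.01 in control cells, also has the host that changed most, by 2.00 and 2.65.

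Of the 4 core protein genes of the particle, none passed at 6 h in Ado KO cells and Dkc1 rose in control cells. Of all genes 4.42% were called higher in Ado KO and 7.74% in control cells. Dkc1, the pseudouridine synthase itself, averaged 6.91 ± 0.18 log2 CPM in Ado KO cells at 6 h and 6.72 ± 0.32 in untreated Ado KO cells (SD, n = 4 each). In control cells it averaged 7.18 ± 0.30 at 6 h and 6.63 ± 0.31 untreated. The difference was 0.19 ± 0.15 in Ado KO (SE; adjusted p = 0.585) and 0.55 ± 0.15 in control cells (adjusted p = 0.0114), and the interaction did not pass (-0.37 ± 0.22, adjusted p = 0.8). Nop10, Nhp2 and Gar1 passed in none of the 11 comparisons, with 6 h changes of 0.01, -0.12 and 0.16 in Ado KO and -0.02, -0.15 and 0.18 in control cells.

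Among 11 genes for the assembly of such particles, none passed at 6 h in Ado KO cells (4.42% of all genes higher and 2.02% lower). In control cells Coil, the scaffold of Cajal bodies, fell by 0.60 (7.74% of all genes higher and 10.3% lower). From 1 h to 6 h Shq1, a dyskerin chaperone, rose by 0.58 in control cells (4.82% of all genes higher). Of 25 genes for 3′ trimming, oligoadenylation and debranching, all measured, 1 rose in Ado KO and 2 in control cells. Of all genes 4.42% and 7.74% were called higher there, so these counts were near the share over all genes. Mphosph6, an exosome partner, rose by 0.34 in both genotypes, and the helicase gene Skiv2l2 rose by 0.42 in control cells. Of 12 pseudouridine synthases that act without a guide RNA, none passed in Ado KO cells. In control cells Pus3 rose by 0.64, and Pusl1, Rpusd1 and Rpusd3 fell by 0.40, 0.83 and 1.09 (7.74% of all genes higher and 10.3% lower). The interaction at 6 h called 0 genes of these 4 lists, beside 0.347% of all genes. The telomerase RNA Terc, which also has an H/ACA domain, was under the filter.

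Other classes of short non-coding RNA also had members that rose at 6 h. Of all genes 4.42% were called higher there in Ado KO and 7.74% in control cells. Of 47 C/D box RNAs (Snord), 16 rose in Ado KO and 35 in control cells and none fell, with medians of 1.07 and 2.09. Of 4 Cajal body RNAs (Scarna) 2 rose in each genotype. Of 8 spliceosomal RNAs (Rnu1, Rnu2, Rnu5, Rnu11 and Rnu12), 3 rose in Ado KO and 7 in control cells. The 5 copies of U3 (Rnu3), a C/D box RNA of rRNA processing that was not counted among the Snord RNAs, all rose in both genotypes. The median interaction at 6 h was -1.04 in Snord and -0.60 in Scarna RNAs, beside -0.85 in H/ACA RNAs. It was -1.13 in the spliceosomal RNAs and -0.96 in U3. In that order it called 3, 0, 1 and 0 lower, beside 0.347% of all genes. Ado KO against control at 6 h called 3, 0, 1 and 5 lower, beside 0.595% of all genes. The smaller median change in Ado KO cells was thus not particular to H/ACA RNAs. Rn7sk, which keeps P-TEFb inactive, rose by 6.03 in Ado KO and 6.94 in control cells, and Rpph1, the RNA of ribonuclease P, by 4.14 and 5.05. The mitochondrially encoded share of the CPM was 2.36% to 2.62% in Ado KO and 2.88% to 3.27% in control libraries at 6 h, against 2.05% to 2.40% and 1.97% to 2.50% in untreated libraries. Estimated depth at 6 h was 4970000 to 5870000 tags in Ado KO and 4260000 to 5430000 in control libraries. The part of any of these in the H/ACA changes was not tested.

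Across the 35 members, the 6 h change and transcript length gave a Pearson r of -0.01 in Ado KO and -0.07 in control cells. For GC content r was 0.28 and 0.14, for the longest run of A -0.29 and -0.09, and for the mean level over all libraries 0.16 and 0.05. The members share libraries, so these are descriptions over 35 RNAs and carry no test. The 5 members over 150 bases all rose in control cells, from 0.36 for Snora73b to 5.01 for Snora74a, and 1 of the 5, Snora74a, rose in Ado KO cells. Of all genes 7.74% were called higher in control and 4.42% in Ado KO cells.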

How the data were processed

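RNA of 24 MC38 libraries was read with the QuantSeq 3′ kit. Per the submitters' processing notes, FastQC, cutadapt 1.7, HISAT2, featureCounts (Subread) and limma were used with the builds GRCm38 and mm10, and nothing more of their roles is given in the sources used here. The authors deposited 1 table of normalised values, which were taken as log2 CPM from the values themselves, since the libraries share a lowest value of -3.349 and a highest of 17.04. Raw counts were not used here, and the depth given is an estimate from the spacing of the low normalised values.

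Columns were joined to samples by their description and numbered by title, because for Control gRNA 2 at 1 h the titles and column names give opposite replicate numbers. Genes at 0 or more in at least 4 libraries were kept, 13272 of 15390. The main test was limma 3.58.1 in R 4.3.3 with 6 group means, a variance trend, the guide population as a random block (statmod 1.5.0, correlation 0.0485) and Benjamini-Hochberg adjustment over all kept genes. That 1 correlation over all genes treats libraries of a guide as nearly independent, also for RNAs whose guides differed. A second limma fit on 12 means of guide and treatment gave the guide comparisons. On simulated data for the control comparison at 6 h over 13272 genes, the main fit made 151 calls, of which 12 were false. It recovered 46.2% of genes changed 1.5-fold, 73.2% of those changed 2-fold and 89.1% of those changed 4-fold. The data themselves gave 1027 higher and 1365 lower calls there, so the simulation held fewer changes. Replicate numbers did not pair libraries (correlations of deviations from -0.158 to 0.054).

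Positions and sequences are those of GENCODE M21, and near-identical copies were found with blastn 2.17.0. Named members were the 8 of highest mean level, the 5 largest and 5 smallest changes called in control cells at 6 h with 1 sign in both guides, 5 not called there, those called in a genotype, 1 h or interaction comparison, and those linked to rRNA cleavage. Others were named after their values were seen. From the gene lists, all core proteins and up to 4 genes of each other list were named. The members and lists were chosen with earlier results of these data known. Alternatives were other filters, a pseudocount of 1, protein-coding median scaling, no variance trend, no or fixed guide terms, a replicate block, and leaving out each library or guide population. One host gene, 1 sequence and the positions tied to them are not reported here.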

Additional observations from a re-analysis of the deposited data

Results flagged for a closer look

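The 6 h response to TNF differed between Ado KO and control cells in 7 H/ACA RNAs by the limma interaction test over all genes. The differences, Ado KO change minus control change on the log2 scale, were -1.55 for Snora30, -1.41 for Snora44, -1.57 for Snora47, -1.53 for Snora20, -1.81 for Snora3, -1.77 for Snora68 and -2.02 for Snora62. Each was negative in all 4 fits that left out a guide population, and none was called without Ado guide 2. Those fits share libraries with the test that chose the 7, so the sign is no separate support.

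Single libraries stood apart from the other 3 of their group in 3 of 138 groups of 4 values examined, where chance gives about 1 in 20. Snora26 was at 4.89 log2 CPM in the Ado KO library 1-2 at 6 h, against 5.47 to 5.54 in the other 3. The same library had a median over the members of 2.67, against 3.01 to 3.06. Snora68 was at 5.34 in the Ado KO library 1-1 at 6 h, against 4.91 to 4.97.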

How the results depend on the processing

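No called member value reversed its direction, but these values were chosen by a call on the same libraries. Under an alternative 1710 such values kept their side of the threshold and 218 lost the call. Values that were not called were not tabulated under the alternatives. Without each guide population in turn (for the genotype and interaction comparisons chosen after seeing the data), the interaction at 6 h called 0 members without Ado guide 2 and 2 without Control guide 1, instead of 7. Ado KO against control called, without Ado guide 2, Ado guide 1, Control guide 1 and Control guide 2 in that order, 0, 5, 0 and 2 members untreated, 1, 3, 1 and 10 at 1 h, and 2, 4, 2 and 6 at 6 h. The shares of all genes called in these fits are given above. The 6 h response in Ado KO cells had 6 calls without Ado guide 1, 6 h against 1 h in Ado KO cells had 5 without Ado guide 2, and the 1 h response in control cells had 0 without either control guide. Guides as fixed terms gave 3 calls at 1 h in Ado KO cells and 2 in control cells, and 6, 11 and 11 for Ado KO against control untreated, at 1 h and at 6 h. Without a variance trend these 3 gave 0, 0 and 4, the 1 h response in control cells 0 and the guide comparisons 1. The causes were not tested.

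Leaving out 1 library at a time gave 14 to 19 calls for the 6 h response in Ado KO and 26 to 29 in control cells, 0 to 2 and 0 to 1 at 1 h, and 8 to 10 and 22 to 24 for 6 h against 1 h. Ado KO against control had 0 to 2 calls untreated, 0 to 8 at 1 h and 4 to 6 at 6 h, and the interaction 5 to 9 at 6 h. The replicate block gave 19 calls at 6 h in Ado KO cells, 29 in control cells, 7 for the interaction and 5 for Ado KO against control at 6 h, so it moved no such count by over 1.5 times. Depth limits members near a value of 0, which stands for about 3.8 to 6.1 tags.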
